A study of Mus musculus with 4 samples.

Results

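The Zic family members Zic1, Zic2, Zic4 and Zic5 were followed across the cells of the developing mouse arcuate nucleus (ARC). They were taken by gene symbol as 4 of the 27998 genes listed in the count table, of which 19170 had at least 1 unique molecular identifier (UMI, a tag that marks a single captured transcript). The cells came from C57BL/6 embryos carrying the Pomc-eGfp transgene, in which Pomc regulatory sequence drives green fluorescent protein. The age label gives embryonic day (E) 15 and the titles give E15.5. Fluorescent regions of the ventral hypothalamus were cut out under a fluorescence microscope, combined over the embryos, and made into 1 droplet library that was sequenced in 4 runs. There was therefore 1 group of 1 pooled library, with no treatment and no second genotype. Every embryo carried the transgene, and cells cannot be traced to an embryo or a run. Cells of 1 library are not replicates, so no p-value is given, and every interval below is a 95% interval that covers counting error only.

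Zic genes encode zinc-finger transcription factors related to the Gli factors of Hedgehog signalling. In the vertebrate embryo they are known for the dorsal neural tube, the midline and the patterning of the forebrain, and Zic1 also for the meninges and other mesenchyme. The ventral hypothalamus, from which ARC neurons arise, is instead marked by Nkx2-1, a homeobox factor that depends on Sonic hedgehog.

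After the limits on cells described under the methods, 6351 of 6465 barcodes were kept, each with 1748 to 16836 UMIs (median 3338). The 6465 barcodes were all distinct. Neurons were cells with at least 2 UMIs of Stmn2, a microtubule regulator of young neurons, and numbered 3993. Neurons were then divided by at least 1 UMI of a class gene: Otp (646 cells), Lhx1 (81), Dlx1 (159), Fezf1 or Nr5a1 (553), Robo3 (348) and Gbx2 (89). Another 240 neurons held UMIs of several classes and 1877 of none. Progenitors, with a UMI of the stem cell factor Sox2 and at most 1 of Stmn2, numbered 840. Fibroblast-like cells, with at least 3 UMIs of Col1a1, Lum and Dcn together, numbered 103, and 20 cells that met this rule and another were left out. The remaining cells served as a reference: 483 pituitary-like cells, 51 vessel- or macrophage-like cells and 861 other cells. Although the label names the cells as neurons of the ARC, 37.1% of kept cells were outside the rule for neurons, and 1267 of the 3993 neurons held an Nkx2-1 UMI.

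The groups were checked against marker genes that their rules did not use. At least 2-fold higher inside than outside the group were 7 of 7 markers in neurons, 8 of 8 in progenitors and 8 of 8 fibroblast markers in fibroblast-like cells. The ventromedial hypothalamus list was higher for 6 of 6 genes in Fezf1/Nr5a1 neurons, and the Dlx list for 6 of 6 in Dlx1 neurons. In Otp neurons 3 of 5 markers with enough UMIs were higher and Pou3f2 was lower, and in Lhx1 neurons 3 of 4 were higher. Robo3 neurons were higher for 5 of 6 habenula genes, among them Pou4f1, a POU factor of habenular neurons, at 1323 against 215 UMIs per 1000000 (CPM). Gbx2 neurons were higher for 4 of 6 thalamus genes, among them Tcf7l2, at 6576 against 832 CPM. The labels place all cells in the ARC, and these habenula and thalamus genes go against that label for the Robo3 and Gbx2 neurons. Progenitors were mixed: 171 of the 840 held at least 2 UMIs of the pituitary genes Pitx1, Lhx3, Pou1f1 and Cga.

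The family lies in the mouse genome (GRCm38, GENCODE annotation) as 2 pairs of neighbours. Zic1 (chr9:91358058-91365810, minus strand, up to 4 exons) and Zic4 (chr9:91362413-91389348, plus strand, up to 5 exons) point away from each other and share 3398 bases at their 5′ ends. Zic5 (chr14:122456795-122465677, minus strand) and Zic2 (chr14:122475435-122479852, plus strand) also point away from each other, with 9757 bases between them. The library read transcripts from the 3′ end, which lies outside the shared stretch for both Zic1 and Zic4. Whether counting used the strand is not given in the sources used here. The 300 bases around the RefSeq start (250 before and 50 after) of the members matched in the RefSeq promoter table, build GRCm38.p6, are printed 5′ to 3′ on the strand of the gene, since the levels below move together although the pairs lie on different chromosomes. The letters searched were GGGCGG, the GC box. CCAAT, the CCAAT box, was searched as well. Capitals mark matches on either strand, and the windows are Zic1 at chr9:91365719-91366018 on the minus strand, Zic4 at chr9:91368722-91369021 on the plus strand and Zic5 at chr14:122465609-122465908 on the minus strand. The RefSeq start of Zic4 lies 6559 bases inside the GENCODE gene of 12 transcripts, and those of Zic1 and Zic5 lie 42 and 19 bases inside. Zic2 was not matched.
Zic1: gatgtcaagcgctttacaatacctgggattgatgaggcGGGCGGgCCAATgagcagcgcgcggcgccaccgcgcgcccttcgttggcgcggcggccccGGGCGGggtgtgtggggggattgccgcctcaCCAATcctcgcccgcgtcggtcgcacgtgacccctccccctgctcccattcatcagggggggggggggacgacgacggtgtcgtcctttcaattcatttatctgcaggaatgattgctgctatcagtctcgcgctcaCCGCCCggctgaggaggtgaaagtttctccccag
Zic4: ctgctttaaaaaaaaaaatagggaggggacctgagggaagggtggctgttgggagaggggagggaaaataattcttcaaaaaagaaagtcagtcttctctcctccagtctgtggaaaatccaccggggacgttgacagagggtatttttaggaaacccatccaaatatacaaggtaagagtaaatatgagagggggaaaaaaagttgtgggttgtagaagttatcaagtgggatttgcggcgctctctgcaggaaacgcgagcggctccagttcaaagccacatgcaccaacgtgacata
Zic5: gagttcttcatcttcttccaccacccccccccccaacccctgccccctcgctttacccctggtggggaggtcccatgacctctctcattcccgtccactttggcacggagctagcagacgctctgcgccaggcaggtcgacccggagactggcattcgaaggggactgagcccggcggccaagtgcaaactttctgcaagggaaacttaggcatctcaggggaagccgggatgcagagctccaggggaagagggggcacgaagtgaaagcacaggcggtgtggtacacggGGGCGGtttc

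The Zic1 window held 3 GC boxes and 2 CCAAT boxes, the Zic5 window held 1 GC box, and the Zic4 window held none of either. Of all 32851 windows of the same length, 35.7% held a GC box and 37.4% a CCAAT box. None of the 3 windows held TATAAA on either strand, against 13.6% of all windows. The G and C content was 65.3% for Zic1, 62.7% for Zic5 and 46.0% for Zic4, beside a median of 52.7% over all windows. The CpG content of the Zic1 window was 0.969 of that given by its base composition, a value that 7.70% of windows reached, whereas Zic4 was at 0.545 and Zic5 at 0.510. These are descriptions of letters in the windows and not of bound sites.

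All 4 members were at their highest level in Gbx2 neurons and next in Robo3 neurons. Levels are pooled UMIs per 1000000 UMIs of a group (CPM), and they are compared between groups, not between genes. Zic1 was at 1199 CPM (1084 to 1323) in Gbx2 neurons and 989 CPM (938 to 1042) in Robo3 neurons. Next came neurons with no class gene at 415 CPM (401 to 431), neurons with several class genes at 240.3 CPM (210.4 to 273), Lhx1 neurons at 199.7 CPM (148 to 263), other cells at 190.4 CPM and progenitors at 141 CPM (129 to 153). At the lower end, fibroblast-like cells were at 84.3 CPM (59.1 to 117), Otp neurons at 83.1 CPM (71.2 to 96.4) and Dlx1 neurons at 66.4 CPM (45.7 to 93.3). Vessel- or macrophage-like cells were at 45.0 CPM (22.5 to 80.5), Fezf1/Nr5a1 neurons at 30.7 CPM (24.3 to 38.2) and pituitary-like cells at 14.0 CPM (9.48 to 20). From fibroblast-like cells down to Fezf1/Nr5a1 neurons, each interval overlapped the next in this order. The interval of fibroblast-like cells did not reach that of progenitors. That of Lhx1 neurons overlapped those of the groups on either side. The intervals did not set these overlapping neighbours apart.

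The same order was largely kept by the other members. Zic4 was at 666 CPM (581 to 759.8) in Gbx2 neurons, 491 CPM (456 to 529) in Robo3 neurons, 239 CPM in neurons with no class gene and 133 CPM (122 to 146) in progenitors. It was at 42.5 CPM (34.1 to 52.3) in Otp neurons, 20.2 CPM (15.1 to 26.5) in Fezf1/Nr5a1 neurons and 16.4 CPM (6.59 to 33.8) in fibroblast-like cells. Zic5 was at 452 CPM (383 to 530.4) in Gbx2 neurons, 387 CPM (355 to 421) in Robo3 neurons, 106 CPM in neurons with no class gene and 64.5 CPM (56.6 to 73.3) in progenitors. Across Otp, Dlx1, Fezf1/Nr5a1 and fibroblast-like cells Zic5 stayed between 7.77 and 18.1 CPM, and the interval for Fezf1/Nr5a1 neurons (4.74 to 12) reached into those of the others. Zic2, by far the most sparsely counted member with 239 UMIs in the kept cells, was at 72.3 CPM (46.3 to 108) in Gbx2 neurons, 45.0 CPM (34.7 to 57.5) in Robo3 neurons and 5.49 CPM (3.36 to 8.48) in progenitors. In Otp neurons and in Fezf1/Nr5a1 neurons Zic2 had 2 UMIs each, and in vessel- or macrophage-like cells 0 UMIs, where 3 counts would have been 12.3 CPM. The intervals for Gbx2 and Robo3 neurons overlapped for Zic2 and Zic5, but not for Zic1 or Zic4.

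**Figure D1:**
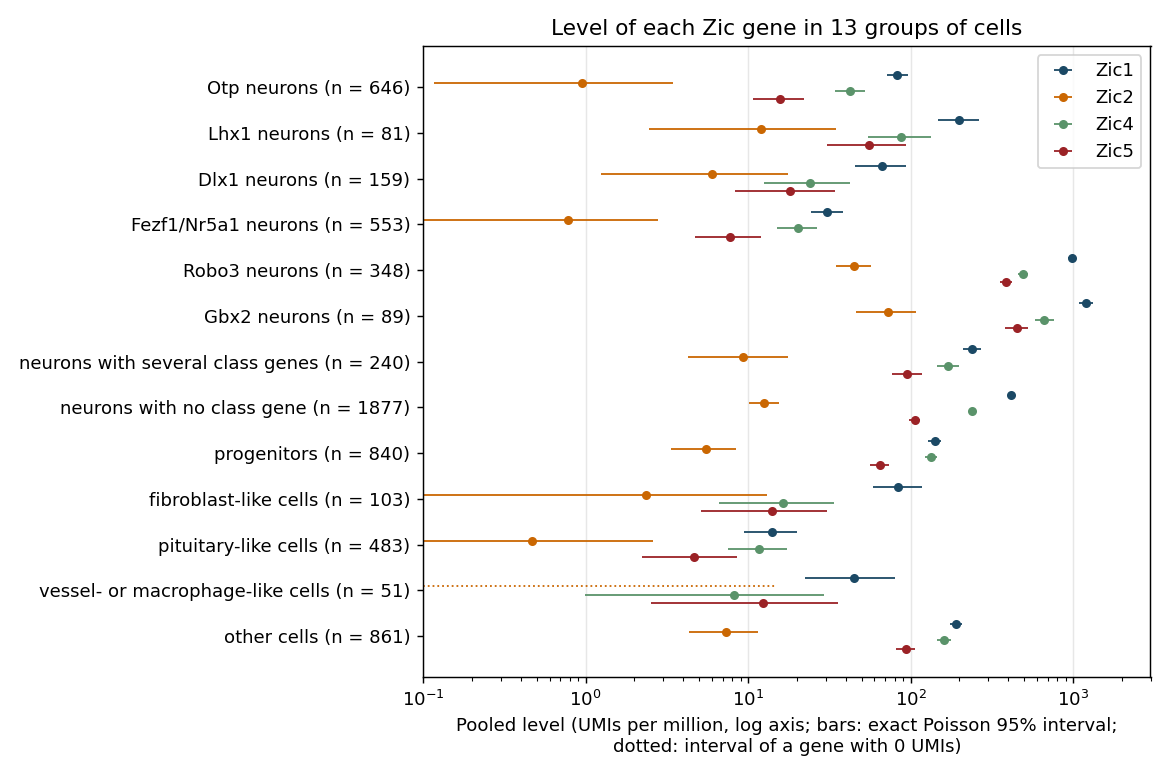
Level of Zic1, Zic2, Zic4 and Zic5 (CPM, log axis) in the 13 disjoint groups of cells, with exact Poisson 95% intervals as bars. Zic1 is highest in Gbx2 neurons (1199) and Robo3 neurons (989), and each of the other members is also highest in these groups.

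The share of cells with a UMI followed the levels. Zic1 was found in 92.0% of Robo3 neurons (88.6 to 94.6) and 93.3% of Gbx2 neurons (85.9 to 97.5), and in 8.05% of Otp neurons (6.07 to 10.4) and 8.32% of Fezf1/Nr5a1 neurons (6.15 to 10.9). As a background, 534 pituitary-, vessel- or macrophage-like cells were taken, though whether their Zic UMIs were free RNA was not tested. Of these, 5.81% (3.98 to 8.14) held a Zic1 UMI at a median depth of 3870.5 UMIs. The median depth was 2826 in Otp and 4154 in Fezf1/Nr5a1 neurons. At these unequal depths the intervals of the Otp and Fezf1/Nr5a1 shares overlapped that of the background share. The intervals alone thus did not set either share apart from the background. The levels did stand apart from the pooled background cells, at 83.1 and 30.7 CPM (24.3 to 38.2) against 17.2 CPM (12.4 to 23.4). Of the background cells 483 were pituitary-like, at 14.0 CPM (9.48 to 20). The 51 vessel- or macrophage-like cells were at 45.0 CPM (22.5 to 80.5), an interval that overlapped those of both Otp and Fezf1/Nr5a1 neurons. With UMIs drawn down to 2167 in every cell, the shares were 83.7% in Robo3, 86.0% in Gbx2, 6.41% (4.55 to 8.73) in Otp, 4.34% (2.77 to 6.44) in Fezf1/Nr5a1 and 3.26% (1.91 to 5.16) in background cells. Cells below that depth, 635 of those kept, could not enter, among them 5 Robo3, 3 Gbx2, 69 Otp, 23 Fezf1/Nr5a1 and 12 background cells.

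Zic1-positive cells were not evenly low in the Otp group. Of its 646 cells, 594 had no Zic1 UMI, 24 had 1, and 28 (4.33%) had 2 or more, with up to 17 UMIs in a cell, against 1.12% of background cells with 2 or more. In the Fezf1/Nr5a1 group 507 of 553 cells had none, 36 had 1 and 10 had 2 or more. By contrast, 283 of 348 Robo3 neurons and 78 of 89 Gbx2 neurons had 2 or more. Zic4 was in 76.4% of Robo3 and 85.4% of Gbx2 neurons, Zic5 in 67.2% and 76.4%, and Zic2 in 16.7% and 20.2%, beside 4.49%, 1.87% and 0.187% of background cells. At least 3 of the 4 members were detected together in 61.5% of Robo3 and 66.3% of Gbx2 neurons. The share was 6.17% in Lhx1, 2.32% in Otp, 0.904% in Fezf1/Nr5a1 and 0.629% in Dlx1 neurons. In Otp neurons the Zic transcripts were thus held by few cells with several UMIs. Doublets were not called, and their part in these cells was not tested.

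Each class of neurons was then set against the pool of the other classes, as a log2 ratio of CPM. Robo3 neurons were higher for 4 of 4 members by at least 2-fold, while 4.99% of all tested genes were. The log2 ratio was 2.95 (2.82 to 3.08) for Zic1, 2.93 (2.31 to 3.57) for Zic2, 2.83 (2.65 to 3.02) for Zic4 and 3.30 (3.07 to 3.53) for Zic5. For Gbx2 neurons 4 of 4 members were also higher, beside 6.24% of genes, with ratios from 2.24 (Zic1) to 2.74 (Zic2). Since Robo3 neurons were part of the pool in that comparison, the direct ratio of Gbx2 over Robo3 neurons was taken too, and it was 0.28 (0.11 to 0.44) for Zic1, 0.44 (0.21 to 0.66) for Zic4, 0.22 (-0.05 to 0.49) for Zic5 and 0.68 (-0.06 to 1.38) for Zic2. Robo3 and Gbx2 neurons therefore differed by less than 2-fold in the estimate for each of the 4 members, with an upper bound past 2-fold for Zic2 alone.

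The classes of the ventral hypothalamus lay on the other side. Robo3 and Gbx2 neurons were part of the pool in each of these comparisons. They held 1405 and 398 of the 1965 Zic1 UMIs set against Otp neurons. The ratios are thus not taken between the hypothalamic classes alone. Among those, Zic1 was at 199.7 CPM in Lhx1, 83.1 CPM in Otp, 66.4 CPM in Dlx1 and 30.7 CPM in Fezf1/Nr5a1 neurons. Otp neurons, named for a homeobox factor of Agrp and Sst neurons in the ARC, were lower for 4 of 4 members by at least 2-fold, beside 5.01% of genes, with log2 ratios of -2.22 for Zic1, -4.31 for Zic2, -2.22 for Zic4 and -3.22 for Zic5. Fezf1/Nr5a1 neurons, of ventromedial type, were lower for 4 of 4 members, beside 5.87% of genes, from -3.49 (-3.92 to -3.09) for Zic4 to -4.75 (-7.82 to -2.86) for Zic2, and held the lowest ratio of each member among the classes. Dlx1 neurons, which share the Dlx and Gad genes of inhibitory neurons, were lower for 4 of 4 members, beside 10.5% of genes, although the interval for Zic2 (-3.54 to 0.35) included 0. The count was 3 of 4 in 3 settings, where Zic2 gave -0.63 with at least 2 UMIs of exactly 1 class gene, -0.91 without the cells with most UMIs and -0.85 as a mean over cells. Lhx1 neurons were lower by at least 2-fold for 0 of 4 members, beside 16.5% of genes. Their ratio was -0.60 (-1.03 to -0.19) for Zic1, -0.82 for Zic4, -0.98 for Zic5 and -0.20 (-2.50 to 1.39) for Zic2, from 3 Zic2 UMIs. In Lhx1 neurons Zic1 was in 17 of 81 cells and Zic4 in 6; 12 of the cells were below the depth of 2167 UMIs, and of the rest 17.4% still held Zic1. The count of 0 held only without a filter on cells and with overlapping groups. In the other 6 settings 1 or more members passed 2-fold: with at least 2 UMIs of exactly 1 class gene Zic1 gave -1.52, Zic4 -1.33 and Zic5 -1.88. With a mitochondrial limit of 5% Zic4 gave -2.30 and Zic5 -1.31, and without the cells with most UMIs -1.64 and -1.11. Zic5 gave -1.30 at equal depth and -1.17 with at least 3 Stmn2 UMIs, and Zic4 gave -1.01 as a mean over cells.

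**Figure D2:**
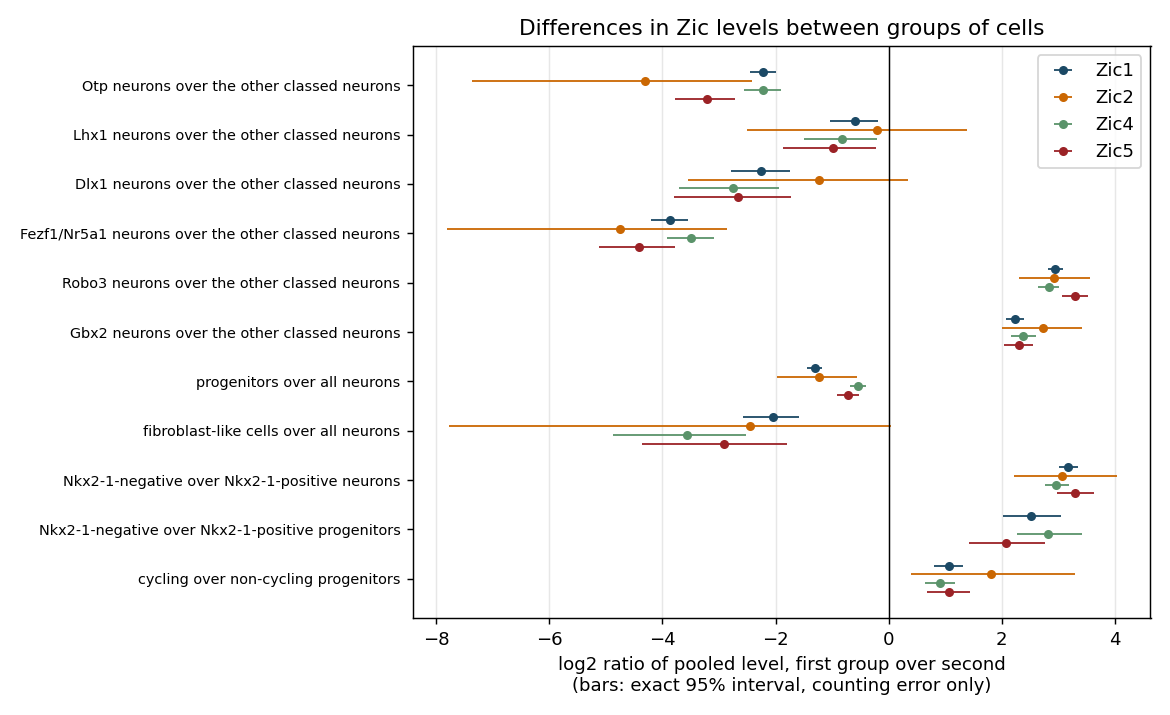
Log2 ratio of the level of each Zic gene in 11 comparisons of groups of cells, with exact 95% intervals for counting error. Points right of 0 are higher in the group named before "over"; Robo3, Gbx2 and Nkx2-1-negative cells lie to the right for all members, and Zic2 has no point for progenitors by Nkx2-1 because it had 0 UMIs in the Nkx2-1-positive cells.

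Neurons without an Nkx2-1 UMI were higher than neurons with a UMI for 4 of 4 members by at least 2-fold, while 4.34% of genes were. Zic1 was at 508 CPM (494 to 522) in 2726 Nkx2-1-negative and 56.2 CPM (50 to 62.9) in 1267 Nkx2-1-positive neurons. The log2 ratio was 3.18 (3.01 to 3.35) for Zic1, 3.06 (2.22 to 4.04) for Zic2, 2.97 (2.76 to 3.19) for Zic4 and 3.29 (2.98 to 3.63) for Zic5. Median depth was close in both groups, at 3358 and 3538 UMIs. Nkx2-1-negative is a statement on UMIs, since a cell with few Nkx2-1 transcripts can have none counted. Markers of neuron types moved with this split. Of the listed markers with at least 20 UMIs over both groups, 5 of 6 for habenula (median log2 ratio 2.52), 4 of 6 for thalamus (1.77) and 3 of 5 for Otp neurons (1.64) were at least 2-fold higher without Nkx2-1, and 3 of 6 for the ventromedial hypothalamus were lower (-1.25), of which Nkx2-1 itself was used for the split. Of the vessel markers 3 of 6 and of the macrophage markers 2 of 6 were higher. The part of cell-type make-up in the Zic difference was not tested. Among the neurons with no class gene, a split chosen after seeing the data, Zic1 was at 598 CPM against 56.9 CPM, a log2 ratio of 3.39 (3.15 to 3.65), and the other members gave 3.31 to 3.68. Within Robo3 neurons only 17 of 348 held an Nkx2-1 UMI, and there Zic1 was still at 624 CPM (469 to 814) against 1013 CPM without it. In the Fezf1/Nr5a1 neurons, Zic1 was low on both sides, at 50.4 CPM without and 21.9 CPM with Nkx2-1, and in Otp neurons it was at 95 and 52.6 CPM.

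Several other regional markers were also tied to the Zic level. Neurons with a UMI of Lhx9, a LIM factor of the thalamus and pretectum, held Zic1 at 926 CPM, against 118 CPM in neurons without. For Tcf7l2, a Wnt effector of the caudal diencephalon, the values were 550.3 and 76.4 CPM, and for Gng8, a habenular G protein subunit, 892 and 157 CPM. On the ventral side, neurons with Six3, Six6 and Tbx3, factors of the hypothalamus, held Zic1 at 90.1, 99.8 and 58.8 CPM, against 556, 478 and 391 CPM without. Neurons with Sox14 held 41.0 CPM against 424 CPM. Not every marker did so. Neurons with Calb2, from the same thalamus list as Lhx9, held Zic1 at 303 CPM against 357 CPM, a log2 ratio of -0.24 (-0.36 to -0.11), and Zic5 at -0.70 (-0.96 to -0.44). Neurons with Pou3f2, from the Otp list, held more, at 779.5 against 299 CPM. With Adcyap1 the values were 336 and 351 CPM, with Lmo3 344 and 352 CPM, and with Rora 372 and 349 CPM.

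Genes of the ventral hypothalamic field were mostly lower where the Zic genes were high. Of the 8 listed (Shh, Nkx2-1, Rax, Six3, Six6, Tbx3, Nkx2-2 and Nkx2-4), 8 were at least 2-fold lower in Robo3 neurons than in the other classed neurons, beside 8.87% of all tested genes, and 6 in Gbx2 neurons, beside 17.1%. In Nkx2-1-negative neurons 6 of 8 were lower, beside 1.84% of genes, of which Nkx2-1 itself was used for the split. Of the 12 genes listed as dorsal midline and diencephalic signals and factors, 4 had enough UMIs in that comparison and 3 were higher. Among them Rspo3, which encodes a secreted enhancer of Wnt signalling, was at 98.5 against 18.6 CPM. In Robo3 and Gbx2 neurons 3 of the 12 had enough UMIs and the list was mixed. Rspo3 was higher in both, at log2 ratios of 2.80 (2.48 to 3.12) and 2.26 (1.85 to 2.64). Bmp7, a secreted signal of the BMP family, was higher in Robo3 neurons at 2.60 (1.19 to 4.10), but at 0.12 (-5.26 to 2.77) in Gbx2 neurons. Msx1, a homeobox factor of the dorsal midline, was at 2.82 against 6.09 CPM in Robo3 neurons, a log2 ratio of -1.11 (-3.07 to 0.37), and had 0 UMIs in Gbx2 neurons against 5.70 CPM in the others. Of 6 Gli and Glis genes, zinc-finger relatives of the family, 2 had enough UMIs in the split of neurons by Nkx2-1 and 0 differed by 2-fold, with Gli3 at 3.72 and 4.09 CPM and Glis2 at 10.1 and 10.0 CPM. Gli3 rested on few UMIs in the Zic-rich classes, at a log2 ratio of 1.86 (-0.55 to 3.65) in Gbx2 neurons and -1.15 (-4.30 to 0.91) in Robo3 neurons.

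Progenitors as a whole held less of the Zic transcripts than neurons. Zic1 and Zic2 were at least 2-fold lower, which is 2 of 4 members beside 14.1% of genes, with log2 ratios of -1.31 (-1.45 to -1.18) and -1.23 (-1.97 to -0.56). Zic4 was at -0.54 (-0.68 to -0.40) and Zic5 at -0.72 (-0.92 to -0.52). At equal depth Zic2 was at -0.96, inside 2-fold. Marker lists moved with this comparison. In progenitors 5 of 6 habenula and 4 of 6 thalamus markers were at least 2-fold lower. Higher were 5 of 5 leptomeninges, 4 of 5 fibroblast and 5 of 7 macrophage markers. Their part in the Zic difference was not tested. The lower Zic4 level was not seen without progenitors that held pituitary genes. In the 171 progenitors with at least 2 pituitary-gene UMIs, Zic1 was at 19.5 CPM (12.4 to 29.3) and Zic4 at 12.7 CPM (7.13 to 21.0), close to the pituitary-like cells. In the 632 progenitors with no such UMI, a subset chosen after seeing the data, the log2 ratio over all neurons was -0.77 (-0.91 to -0.63) for Zic1, -0.64 (-1.40 to 0.05) for Zic2, 0.04 (-0.10 to 0.18) for Zic4 and -0.17 (-0.38 to 0.03) for Zic5. With Nkx2-1-negative cells alone on both sides, 552 progenitors against 2726 neurons, the ratios were -1.44 (-1.58 to -1.30) for Zic1, -1.24 (-1.98 to -0.57) for Zic2, -0.63 (-0.78 to -0.49) for Zic4 and -0.89 (-1.10 to -0.68) for Zic5. Of these progenitors, the 368 that also lacked a pituitary-gene UMI, a limit not set on the neurons, gave -0.64 (-0.78 to -0.49) for Zic1, -0.38 (-1.15 to 0.30) for Zic2, 0.21 (0.06 to 0.36) for Zic4 and -0.04 (-0.26 to 0.17) for Zic5.

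Zic transcripts in progenitors were, as in neurons, mainly found where Nkx2-1 was not. Zic1 was at 187 CPM (171 to 205) in 552 Nkx2-1-negative and 32.7 CPM (22.9 to 45.3) in 288 Nkx2-1-positive progenitors. The members Zic1, Zic4 and Zic5 were higher by log2 ratios of 2.52 (2.03 to 3.05), 2.82 (2.27 to 3.43) and 2.07 (1.43 to 2.77). Pituitary markers moved with this split: 8 of 8 were at least 2-fold higher in the Nkx2-1-negative progenitors. Other lists moved as well: of 4 leptomeninges markers with enough UMIs 3 were higher and 1 lower (median log2 ratio 1.70), and of 8 progenitor markers 4 were lower (-0.99). Their part in the Zic difference was not tested. Without progenitors that held a pituitary-gene UMI, an alternative chosen after seeing the data, the log2 ratios were larger, at 3.17 for Zic1, 3.53 for Zic4 and 3.18 for Zic5. Zic2 had 20 UMIs in the Nkx2-1-negative progenitors and 0 in the others. With 3 counts put as the floor in the Nkx2-1-positive group this is 2.89-fold higher. The lower bound of the exact interval was a log2 ratio of 1.10. All 4 of 4 members were thus at least 2-fold higher, beside 8.10% of genes. Of the dorsal list 5 genes had enough UMIs and 3 were higher, among them Rspo3 at 272 against 43.6 CPM and Msx1 at 84.6 against 11.8 CPM. Of the 8 ventral genes 6 were lower, Nkx2-1 included, beside 5.82% of genes. Shh was at 9.05 against 110.0 CPM and Rax, a factor of hypothalamic progenitors, at 18.5 against 129 CPM. Six6 was instead higher, at 347 against 263 CPM, a log2 ratio of 0.40 (0.21 to 0.60), and Nkx2-2 was at -0.27 (-1.34 to 0.87). Of the Gli and Glis genes 5 had enough UMIs and 1 was higher by 2-fold, Gli2 at 7.87 against 0.909 CPM, a log2 ratio of 3.11 (0.47 to 8.49) that rests on 1 UMI in the Nkx2-1-positive group.

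Cycling progenitors, with at least 1 UMI of Mki67 or Top2a, held more Zic transcript than the rest. Zic1 was at 221 CPM (194 to 251) in 185 cycling and 106 CPM (93.7 to 119) in 655 non-cycling progenitors. The log2 ratio was 1.06 (0.81 to 1.32) for Zic1, 1.81 (0.39 to 3.30) for Zic2, 0.91 (0.65 to 1.17) for Zic4 and 1.06 (0.68 to 1.44) for Zic5. This put 3 of 4 members past 2-fold, beside 5.41% of genes, with Zic4 just inside. Cycling cells were deeper, at a median of 5074 against 3033 UMIs, and at equal depth Zic1 was in 57 of 181 cycling and 82 of 529 non-cycling cells. The ratios within Nkx2-1-negative progenitors were 0.87 (0.61 to 1.14), 1.72 (0.30 to 3.21), 0.79 (0.51 to 1.06) and 0.95 (0.55 to 1.35) in the same order. In that subset only Zic2 stayed past 2-fold. Over all progenitors Zic1 was between 0.70 and 0.97 in 5 planned settings and Zic5 between 0.72 and 0.93 in 3, so that 1 or 2 of 4 members passed 2-fold there. Without progenitors that held a pituitary-gene UMI, a setting chosen after seeing the data, Zic1 was at 0.89 and Zic5 at 0.93.

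The make-up of the family differed between progenitors and neurons. Of the summed UMIs of the 4 members, Zic1 gave 40.9% (38.1 to 43.6) and Zic4 38.8% (36.1 to 41.5) in progenitors, but Zic1 gave 52.7% (51.8 to 53.7) and Zic4 29.3% (28.4 to 30.2) in neurons. Such shares also carry how well each transcript is captured, so they are read only between groups. The shift was there without Nkx2-1-positive cells and without pituitary genes, where Zic1 gave 40.1% and Zic4 39.7% of the UMIs in progenitors. Along bins of Stmn2 UMIs among cells without Nkx2-1, chosen after seeing the data, the Zic1 share was 38.9% (35.5 to 42.4) in Sox2-positive cells with no Stmn2 UMI, 44.2% (39.7 to 48.7) at 2 UMIs, 49.6% (46.7 to 52.6) at 3 or 4, 51.8% (50.2 to 53.3) at 5 to 9, and 55.8% (54.3 to 57.4) at 10 or more. The Zic4 share was 40.1% (36.6 to 43.6), 32.7%, 29.7%, 27.8% and 29.8% (28.4 to 31.2) in the same bins. The Zic5 share was between 18.1% and 19.8% in these bins except the last, where it was 13% (12 to 14.1). In Sox2-positive cells with 1 Stmn2 UMI, which these bins leave out, the shares were 44.7% (39.6 to 49.9) for Zic1, 37.5% (32.6 to 42.6) for Zic4 and 16.0% (12.4 to 20.1) for Zic5. In cells with 1 Stmn2 UMI and no Sox2 UMI, also left out, they were 44.0% (38.8 to 49.2), 32.2% (27.5 to 37.3) and 22.7% (18.5 to 27.3). Depth moved with these bins: median UMIs per cell ranged from 2668 at 2 Stmn2 UMIs to 4228 at 10 or more. Its part in the shift was not tested.

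**Figure D3:**
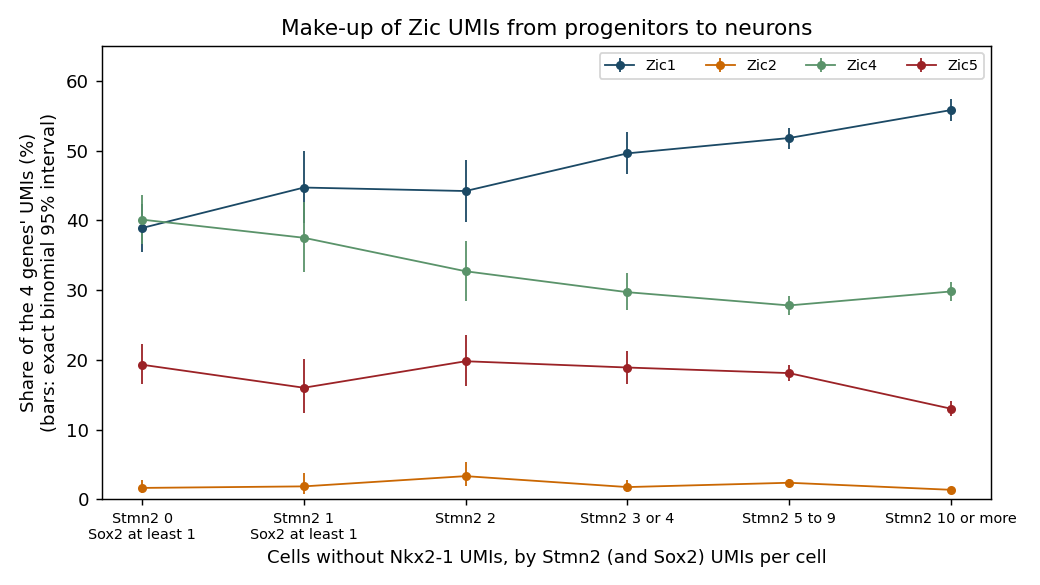
Share of each gene among the UMIs of Zic1, Zic2, Zic4 and Zic5 (percent, exact binomial 95% intervals) in cells without Nkx2-1 UMIs, ordered by Stmn2 UMIs per cell. The Zic1 share goes from 38.9% in Sox2-positive cells without Stmn2 to 55.8% at 10 or more Stmn2 UMIs, and the Zic4 share from 40.1% to 29.8%.

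Levels of Zic1, Zic4 and Zic5 in CPM, which are relative to all UMIs of a bin, also differed between these bins. Zic1 was at 175 CPM (156 to 195) in the Sox2-positive cells without Stmn2, 254 CPM (221 to 291) at 2 Stmn2 UMIs, 382 CPM at 3 or 4, 576 CPM (551 to 601) at 5 to 9 and 546 CPM (524 to 569) at 10 or more. Zic4 was at 179.9, 188, 229, 309 and 291 CPM in the same bins, so its lower share did not go with a lower level. Zic5 was at 86.8, 114, 145, 201 (187 to 216) and 127 CPM (117 to 139) in the same bins. From the bin of 5 to 9 to the last, Zic5 was thus lower with intervals that did not overlap, while those of Zic1 did. The levels did not rise at each step: cells with 1 Stmn2 UMI held Zic1 at 216 CPM (184 to 251) with Sox2 but at 140.1 CPM (119 to 163) without it, and Zic5 at 77.0 CPM (58.7 to 99.1) and 72.2 CPM (57.5 to 89.5). The cells without Stmn2 include the pituitary-type progenitors described above.

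Fibroblast-like cells, the mesenchyme of the sample, held Zic1 above the level of the pooled background cells, but not clearly the other members. They were lower than neurons by at least 2-fold for 4 of 4 members, beside 31.9% of genes, at -2.05 (-2.57 to -1.58) for Zic1, -3.57 (-4.88 to -2.52) for Zic4, -2.92 (-4.37 to -1.79) for Zic5 and -2.46 (-7.77 to 0.04) for Zic2. Against the background cells, Zic1 was higher by 2.29 (1.60 to 2.97) on the log2 scale, at 84.3 against 17.2 CPM. The vessel- or macrophage-like part of that background was at 45.0 CPM (22.5 to 80.5). This interval overlapped that of fibroblast-like cells (59.1 to 117). Zic4 and Zic5 could not be set apart from that background, at 0.53 (-0.91 to 1.77) and 1.36 (-0.32 to 2.86), the latter from 6 and 13 UMIs, under the minimum of 20 set for comparisons. Zic1 was in 26 of 103 fibroblast-like cells, 25.2% (17.2 to 34.8), against 5.81% of background cells at a similar median depth of 3891 and 3870.5 UMIs, and after thinning in 16.2% (9.53 to 24.9) against 3.26%.

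In fibroblast-like cells the make-up of the family was also unlike that of neurons. Zic1 gave 36 of the 50 UMIs of the 4 members, 72.0% (57.5 to 83.8), and Zic4 gave 7. The Zic1 share in vessel- or macrophage-like cells overlapped this, at 68.8% (41.3 to 89.0) from 11 of 16 UMIs. No fibroblast-like cell held 3 or more members, whereas 16.5% of neurons did, so that 0 of 103 cells allows a share of up to 2.91% by 3 counts. Only 7, 5 and 1 of these cells held Zic4, Zic5 and Zic2. A count of 0 thus follows from low detection and does not bear on the make-up. Cells with Lum or Dcn, proteoglycans of connective tissue, held 34 of the 36 Zic1 UMIs in 82 of the cells, and the 21 cells gated by Col1a1 alone held 2. The levels, 99.7 CPM (69.1 to 139) and 23.3 CPM (2.82 to 84.2), had intervals that overlapped. This split was chosen after seeing the data. Leptomeningeal genes were at least 2-fold higher in fibroblast-like cells for 4 of 6 genes: Foxd1 was at 112 against 3.21 CPM outside the group, Slc6a13 at 63.3 against 1.67, Igf2 at 218 against 22.5 and Ptgds at 192 against 12.7. Crabp2 (65.6 and 48.9 CPM) and Aldh1a2 (18.7 and 27.8 CPM) did not differ by 2-fold.

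Within neurons, Zic genes were found in the same cells. Zic1 and Zic4 shared 969 of 3993 neurons, 2.68 times (2.51 to 2.86) the 361 that independent detection would give. Zic2 and Zic5 shared 122 neurons, 3.69 times (3.06 to 4.40) the expected number. Pairs on different chromosomes lay between 2.74 (Zic1 and Zic5) and 3.09 (Zic2 and Zic4). The ceiling differed between pairs, from 2.99 for the pairs with Zic1 to 5.20 for Zic2 and Zic5, so the pairs are not ranked. Such a ratio counts any mixture of Zic-rich and Zic-poor cells and also the spread of depth between cells.

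Within Robo3 and Gbx2 neurons the measure had little room to show an excess, since it cannot pass the inverse of the share of cells that hold the commoner gene of a pair. That ceiling was 1.09 to 1.49 over the 6 pairs in Robo3 neurons and 1.07 to 1.31 in Gbx2 neurons. For Robo3 neurons the ratio was 1.03 (0.733 to 1.40) to 1.13 (0.979 to 1.30) over the 6 pairs, and for Gbx2 neurons 0.953 (0.545 to 1.55) to 1.11 (0.644 to 1.77). Whether Zic genes go together within these groups could thus not be read from detection. In progenitors the ratio was 2.97 (2.48 to 3.52) for Zic1 and Zic4 and 3.73 (3.05 to 4.51) for Zic4 and Zic5, and without Nkx2-1-positive progenitors the 6 pairs gave 2.21 to 2.92. In Otp neurons Zic1 and Zic4 shared 23 cells where 2.90 were expected, a ratio of 7.94 (5.03 to 11.9). The ceiling for this pair was 12.4 in Otp neurons and 4.04 in progenitors, so the ratios are not ranked between groups. Background cells gave 4 cells against 1.39, 2.87 (0.782 to 7.35), for the same pair.

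**Figure D4:**
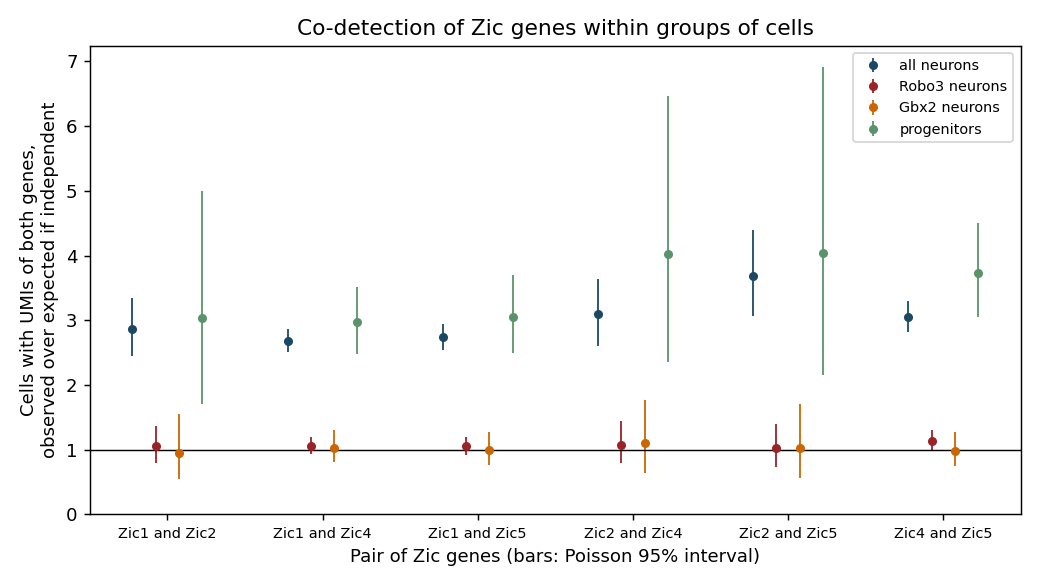
Observed over expected number of cells with UMIs of both genes for the 6 pairs of Zic genes, in all neurons, Robo3 neurons, Gbx2 neurons and progenitors, with Poisson 95% intervals. Neurons (2.68 to 3.69) and progenitors lie above the line at 1, and Robo3 and Gbx2 neurons lie near it, where their ceiling is 1.07 to 1.49.

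Genes with the most similar profile were sought over the 13 groups among 9367 genes with at least 200 UMIs, by Pearson's r of log2(CPM + 10), as a description over groups of very unequal size that come from the same library. For Zic1 these were Zic5 (0.974), Zic4 (0.951), Nrn1 (0.932), Lhx9 (0.925) and Zic2 (0.923). For Zic4 they were Zic5 (0.976), Pou3f2 (0.956), Zic1 (0.951), Pantr1 (0.951) and Nrn1 (0.947). Nrn1 encodes a growth factor at the neuronal surface, and Pou3f2 a POU factor of neurons. Zic5 was nearest to Zic4 (0.976), Zic1 (0.974), Pantr1 (0.959), Nrn1 (0.941) and Zic2 (0.936), and Zic2 to Zic5 (0.936), Mir124-2hg (0.935), Zic1 (0.923), Lhx9 (0.918) and Erbb4 (0.913). A Zic gene was thus at the top of each of the 4 lists. With a pseudocount of 1 and at least 500 UMIs per gene, 4 of the 5 genes were the same for Zic1, 3 for Zic2, 5 for Zic4 and 4 for Zic5. Zic2, which has fewer UMIs than that minimum, could then not be listed for Zic1 or Zic5, and Lhx9 and Erbb4 were no longer among the 5 for Zic2.

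The genes with the largest ratio between neurons with and without a UMI of a member were then listed. For Zic1 (1335 neurons with and 2658 without) they were Bhlhe23 (16.7 against 0.307 CPM), Mab21l2 (17.9 against 0.512), Gm29478 (20.8 against 0.717), Kcng4 (11.5 against 0.410) and Otx2 (22.6 against 0.820). For Zic4 they were Rspo3 (211 against 10.3 CPM), Otx1, Otx2, Barhl2 and Gm29478, and for Zic5 Bhlhe23, the gate gene Gbx2 (52.2 against 3.53 CPM), Otx2, Rspo3 and Otx1. Otx1 and Otx2 are homeobox factors of the forebrain and midbrain, and Barhl2 is a homeobox factor of the diencephalon. Cells with a Zic UMI were deeper (median 3828 against 3151 UMIs for Zic1). For Zic2, in 172 neurons, fewer genes could be listed, since a gene needed at least 50 UMIs in the cells with the member: 2449 genes met this for Zic2 and 8538 for Zic1. The sizes of the ratios are thus not compared between members. Irx3 was at 124 against 25.9 CPM, Cntn2 at 138 against 32.1, Lhx2 at 141 against 33.9, Vav3 at 155 against 37.4 and Rspo3 at 248 against 61.3. The genes were chosen by these same cells, so the values are a description.

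In progenitors Rspo3 was among the 5 leading genes of every member, at 604 against 50.8 CPM by Zic1, 931 against 179 by Zic2, 804 against 23.5 by Zic4 and 789.5 against 83.3 by Zic5. Otx1 was highest for Zic1 (73.9 against 3.79 CPM) and was among the 5 for Zic4 and Zic5. Gm29478 was highest for Zic5 (266 against 22.2 CPM). Rspo1, a relative of Rspo3, was at 82.8 against 4.93 CPM by Zic1, and Fgf15, a diencephalic growth factor, at 115 against 8.34. Barhl2 was at 190.0 against 8.20 CPM by Zic4, beside the noncoding RNA Gm28050 from the same region of chromosome 5, at 234 against 6.78 CPM. The 20 progenitors with Zic2 also held more Macrod2, Cenpw, Ptn and Cks2. These cells were deeper than progenitors without Zic2, at a median of 4607 against 3402 UMIs. Only 295 genes had enough UMIs to be ranked for Zic2, against 3082 for Zic1, 2556 for Zic4 and 1895 for Zic5. The lists are thus not compared between members.

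A noncoding RNA next to the family had another profile than Zic4. Gm29478 (chr9:91404474-91562818, plus strand) is annotated as a long noncoding RNA that starts 15126 bases past the end of Zic4 on the same strand. It was at 63.4 CPM (55.5 to 72.2) in progenitors and 72.5 CPM (62.3 to 83.9) in other cells, but at 13.9 CPM (11.3 to 16.9) in neurons with no class gene, 27.1 CPM (12.4 to 51.5) in Gbx2 neurons and 2.82 CPM (0.767 to 7.21) in Robo3 neurons. Fibroblast-like cells had 0 UMIs. The log2 ratio of progenitors over neurons was 2.98 (2.66 to 3.31), while Zic4 gave -0.54.

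Zic4-positive progenitors often held Gm29478, and Zic4-positive neurons seldom did. Of the 177 progenitors with a Zic4 UMI, 52.0% held a Gm29478 UMI, against 5.64% of the 1081 neurons with a Zic4 UMI and 1.5% of the 266 Robo3 neurons with a Zic4 UMI. In Zic4-positive cells the level was 237 CPM in progenitors, 23.5 CPM in neurons and 3.58 CPM in Robo3 neurons. Robo3 neurons thus held Zic4 at 491 CPM with 4 UMIs of Gm29478 in 348 cells. Like the Zic genes, Gm29478 was higher in Nkx2-1-negative than Nkx2-1-positive progenitors, at 84.6 against 14.5 CPM. The other annotated genes within 20000 bases of a member that were in the table had few UMIs, with 44 for Gm28652, 54 for Gm10837 and 26 for Gm5089. This gene was picked out after its values had been seen.

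**Figure D5:**
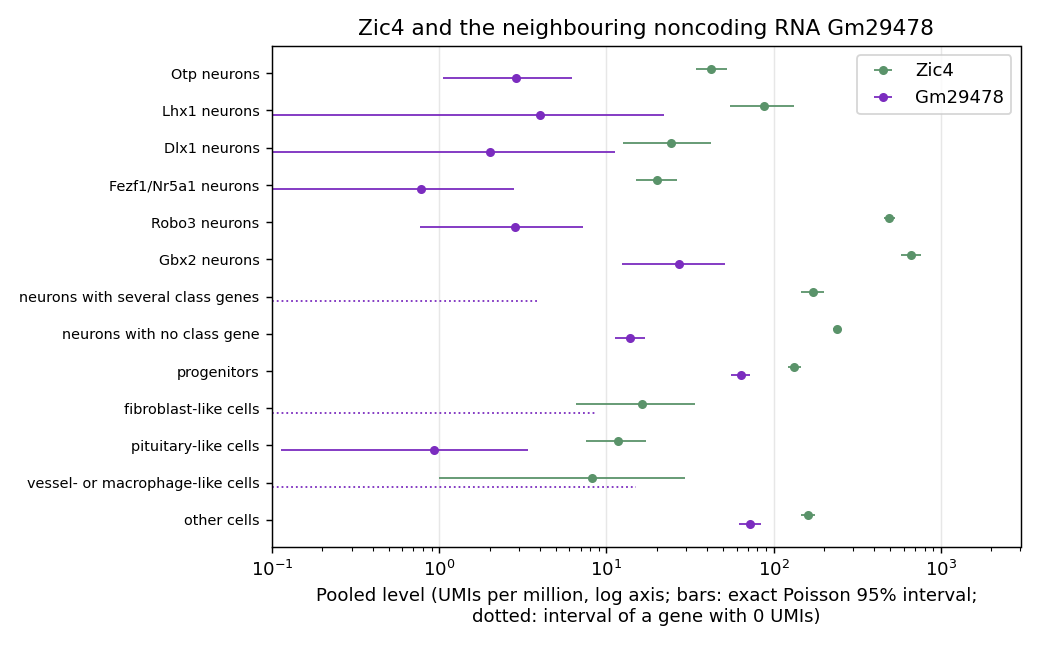
Level of Zic4 and of the neighbouring noncoding RNA Gm29478 (CPM, log axis, exact Poisson 95% intervals) in the 13 groups of cells. Gm29478 is at 63.4 in progenitors, where Zic4 is at 133, and at 2.82 in Robo3 neurons, where Zic4 is at 491.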

How the data were processed

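Droplet RNA sequencing gave 1 table of raw UMI counts per gene and cell, deposited by the authors for 1 pooled library sequenced in 4 runs. Per the submitters' processing notes the tools were Cell Ranger 2.1.1, STAR 2.4.0 and Seurat 2.0 and the build mm10. Per the methods, Cell Ranger made the table, and what Seurat made from it (filtered, scaled and clustered cells) is not used here. The counts in the deposited table are not normalized. The limits the methods state (200 to 4500 genes, at most 10% mitochondrial UMIs, at most 10 Hba-a1 UMIs) were applied here and left 6351 of 6465 barcodes, which is more cells than the study states. No doublet caller was run: the limit of 4500 genes was kept, and cells with the most UMIs were left out as an alternative.

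The 4 members and all marker and context lists were chosen with earlier results of these data known. Levels are pooled CPM with exact Poisson intervals. Shares have Clopper-Pearson intervals, and ratios have conditional exact binomial intervals, all at 95%. UMIs of 1 library are a count of captured molecules, and the intervals cover counting error only. No test between conditions was made, since the study had 1 group and its 4 samples are runs of the same library that cannot be told apart in the table. Genes with at least 20 UMIs over both sides were compared, and a 2-fold difference counted as called. The 5 genes named per member are those most like it in profile (genes with at least 200 UMIs), and those with the largest ratio between cells with and without its UMI (genes with at least 50 UMIs in the cells with it). Scripts ran in Python 3.11.15 with scipy 1.17.1 for intervals, numpy 2.4.6 and pandas 2.3.3 for tables, and matplotlib 3.10.9 for plots. On simulated counts for Robo3 against the other classed neurons (4890 genes run, 200 of them changed), 92.5% of intervals held the true ratio.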

Additional observations from a re-analysis of the deposited data

How the results depend on the processing

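In the 8 settings planned, 1 of 340 log2 ratios had the opposite sign: Zic2 in Lhx1 neurons, with an interval that included 0, was at 0.03 with at least 3 Stmn2 UMIs. Values outside the interval given in the report were as follows. With at least 2 UMIs of exactly 1 class gene, Dlx1 neurons gave -1.33 (Zic1), -1.46 (Zic4) and -1.32 (Zic5), Lhx1 neurons -1.52 (Zic1) and -1.88 (Zic5), Otp neurons -2.57 (Zic4), Fezf1/Nr5a1 neurons -5.35 (Zic5), Robo3 neurons 3.17 (Zic1) and 3.55 (Zic5), and Gbx2 neurons 2.45 (Zic1) and 2.77 (Zic4). With cells thinned to equal UMIs, Otp neurons gave -2.75 (Zic1) and -2.69 (Zic4), progenitors -0.27 (Zic4), cycling progenitors 0.62 (Zic4), Nkx2-1-negative neurons 3.40 (Zic1) and 3.31 (Zic4), and Nkx2-1-negative progenitors 3.21 (Zic1) and 3.85 (Zic4). With the mean over cells of CPM, Otp neurons gave -2.82 (Zic1) and -2.78 (Zic4), Gbx2 neurons 2.40 and 2.60, Nkx2-1-negative neurons 3.26 (Zic4) and Nkx2-1-negative progenitors 3.58 (Zic4). With a mitochondrial limit of 5%, progenitors gave -1.14 (Zic1) and -0.40 (Zic4), Lhx1 neurons -2.30 (Zic4) and Fezf1/Nr5a1 neurons -4.24 (Zic1). With no filter on cells, progenitors gave -1.47 and -0.70 and cycling progenitors 0.70 and 0.56 for Zic1 and Zic4. With overlapping groups, Otp neurons gave -1.80, -1.59 and -2.22 and Dlx1 neurons -1.51, -1.28 and -1.40 for Zic1, Zic4 and Zic5, Fezf1/Nr5a1 neurons -3.14 and -2.79 and fibroblast-like cells -1.48 and -2.02 for Zic1 and Zic4. Without the tenth of cells with most UMIs, Otp neurons gave -3.23 and -2.97 and Robo3 neurons 3.15 and 3.03 for Zic1 and Zic4, and Zic4 gave -1.64 in Lhx1, -4.16 in Fezf1/Nr5a1 and 3.26 in Nkx2-1-negative neurons. At least 3 Stmn2 UMIs moved no ratio out of its interval. In a setting added after seeing the data, progenitors without a pituitary-gene UMI gave -0.77 (Zic1), 0.04 (Zic4, the opposite sign) and -0.17 (Zic5) over neurons, and 3.17, 3.53 and 3.18 by Nkx2-1. The cause of these shifts was not tested.

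The main limits are 1 pooled library, group rules that rest on few UMIs, and 239 Zic2 UMIs. No paired analysis was possible because the replicate numbers mark runs of the same library, the table does not map cells to runs, and no result comes from a test. For the same reason no replicate could be left out.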
